A study of Mus musculus with 2 samples.

Results

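The Krüppel-like factors (KLF) are a family of transcription factors, and the members described here are the mouse genes Klf1, Klf2, Klf3, Klf4, Klf6, Klf9, Klf10, Klf11, Klf13 and Klf16. They were taken by name, as a list of 10 genes among the 21853 protein-coding genes of the GENCODE mm10 annotation with a protein-coding transcript. The list was chosen with earlier results of these data known, and 7 further KLF genes are counted apart near the end. Rankings within the family are among these 10 members. Each member was described by the accessible regions whose extent came within 50 kb of its gene body, 57 regions of the 20080 in the main list. A region was called promoter where its summit, the position of highest signal, lay within 1 kb of the start of any protein-coding transcript, and distal otherwise. No region fell within 50 kb of more than 1 member.

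ATAC-seq, an assay that uses a transposase to cut and tag open chromatin, was run on G1E-ER4 cells exposed to 17Beta-estradiol at 10 nM for 24 h. G1E-ER4 is a mouse erythroid progenitor line that lacks its own Gata1 gene and carries the erythroid factor GATA1 joined to the hormone-binding part of the estrogen receptor, so that estradiol switches GATA1 activity on. The labels give the strain C57BL/6J, male, postnatal, with GATA1 restored and differentiation started by estradiol. The 2 libraries, biological replicates 1 and 2 of 50000 cells each, form 1 group, and untreated cells were not analysed here. Both libraries thus carry the same missing Gata1, the same fusion protein and the same hormone, both come from 1 line, and no value below measures a response to estradiol.

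KLF proteins bind GC-rich DNA of the CACCC and GC box kind through zinc fingers at their C-terminal end, and differ mainly in the N-terminal part, which recruits activators or repressors. Klf1 is the erythroid activator of the family, needed for the adult beta-globin gene and for many genes of the red cell membrane and of haem synthesis. Klf3 is a repressor that recruits CtBP, and in erythroid cells it is known to be transcribed from an internal promoter that KLF1 activates. Klf2, Klf4 and Klf6 mainly activate transcription, while Klf9, Klf10, Klf11, Klf13 and Klf16 bind the corepressor Sin3.

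The DNA at the members' most informative regions is shown first, each as the strand that mm10 numbers as plus, read from RefSeq's GRCm38 genome. Capitals mark 3 motifs searched on both strands. The GATA motif is GATA with A or T before it and A or G after it. The CTG-GATA motif is CTG and GATA with 7 or 8 bases of any kind between them, the composite form read by GATA1 with TAL1. The KLF motif is CCNCNCCC. A match is a description of these letters and not a measured binding site. The Klf1 and Klf3 sequences are given because these genes have an erythroid role and some of their regions held GATA motifs close to a start site. The region 1.28 kb into Klf1, the main Klf3 promoter and the distal Klf3 region held no GATA motif as defined here.
Klf1, 629 bp before the start chr8:84901199-84901399: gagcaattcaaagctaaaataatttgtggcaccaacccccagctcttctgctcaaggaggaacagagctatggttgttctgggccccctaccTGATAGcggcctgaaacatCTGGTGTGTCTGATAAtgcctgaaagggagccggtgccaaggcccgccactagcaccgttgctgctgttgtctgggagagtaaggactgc
Klf1, 150 bases up to the start chr8:84901778-84901927: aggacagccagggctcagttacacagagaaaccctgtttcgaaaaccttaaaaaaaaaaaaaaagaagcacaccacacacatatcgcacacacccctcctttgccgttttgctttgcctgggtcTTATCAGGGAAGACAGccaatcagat
Klf1, 1.28 kb into the gene chr8:84903108-84903308: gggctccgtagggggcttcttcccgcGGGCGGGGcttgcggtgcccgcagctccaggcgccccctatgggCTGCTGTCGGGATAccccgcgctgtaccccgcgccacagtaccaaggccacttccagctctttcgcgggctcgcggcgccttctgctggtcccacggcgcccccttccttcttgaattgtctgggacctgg
Klf3, main promoter chr5:64802983-64803183: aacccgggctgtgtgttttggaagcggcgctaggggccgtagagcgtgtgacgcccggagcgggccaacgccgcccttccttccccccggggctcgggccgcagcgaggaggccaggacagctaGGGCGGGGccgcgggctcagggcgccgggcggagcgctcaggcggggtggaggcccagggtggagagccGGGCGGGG
Klf3, internal promoter, upstream region chr5:64811653-64811853: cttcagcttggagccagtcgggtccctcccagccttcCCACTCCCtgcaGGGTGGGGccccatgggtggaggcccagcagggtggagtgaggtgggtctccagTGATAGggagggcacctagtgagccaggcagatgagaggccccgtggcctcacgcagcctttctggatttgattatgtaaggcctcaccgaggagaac
Klf3, internal promoter, 150 bases up to its first start chr5:64812189-64812338: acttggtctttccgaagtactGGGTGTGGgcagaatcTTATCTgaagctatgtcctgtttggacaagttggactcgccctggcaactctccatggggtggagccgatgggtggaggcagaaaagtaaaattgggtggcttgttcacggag
Klf3, distal, 61.5 kb after the first start chr5:64864755-64864955: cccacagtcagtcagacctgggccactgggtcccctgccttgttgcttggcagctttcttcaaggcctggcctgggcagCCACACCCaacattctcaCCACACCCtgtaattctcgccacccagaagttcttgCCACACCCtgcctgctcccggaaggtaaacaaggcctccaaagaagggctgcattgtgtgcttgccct

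The regions of other members are shown because each is the strongest distal region of its gene, or, in Klf9, because it combined GATA motifs with a CTG-GATA motif. The capitals mark the same motifs.
Klf2, distal, 35.4 kb after the start chr8:72354350-72354550: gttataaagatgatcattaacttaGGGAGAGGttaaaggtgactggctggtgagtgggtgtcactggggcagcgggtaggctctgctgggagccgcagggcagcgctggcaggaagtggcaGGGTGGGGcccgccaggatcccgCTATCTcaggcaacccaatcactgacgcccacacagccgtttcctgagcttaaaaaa
Klf9, intron, 11.3 kb after the start chr19:23152433-23152633: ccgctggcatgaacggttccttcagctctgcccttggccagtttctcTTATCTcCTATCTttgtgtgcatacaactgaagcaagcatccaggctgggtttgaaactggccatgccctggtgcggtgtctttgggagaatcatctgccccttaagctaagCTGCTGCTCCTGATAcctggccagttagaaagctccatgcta
Klf13, intron, 41.9 kb after the first start chr7:63896960-63897160: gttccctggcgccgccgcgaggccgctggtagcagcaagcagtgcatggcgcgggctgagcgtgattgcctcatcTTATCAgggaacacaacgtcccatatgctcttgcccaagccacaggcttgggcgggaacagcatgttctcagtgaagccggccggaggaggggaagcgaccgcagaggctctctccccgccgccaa
Klf16, intron, 7.4 kb after the start chr10:80569786-80569986: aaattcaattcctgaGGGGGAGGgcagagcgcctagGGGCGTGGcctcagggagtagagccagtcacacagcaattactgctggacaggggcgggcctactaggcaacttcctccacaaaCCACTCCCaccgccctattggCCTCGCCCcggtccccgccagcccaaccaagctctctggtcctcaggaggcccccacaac

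The strongest promoter region of the family, that of Klf6, held none of the 3 motifs, and in its sequence the capitals mark CCAAT on either strand.
Klf6, promoter chr13:5861228-5861428: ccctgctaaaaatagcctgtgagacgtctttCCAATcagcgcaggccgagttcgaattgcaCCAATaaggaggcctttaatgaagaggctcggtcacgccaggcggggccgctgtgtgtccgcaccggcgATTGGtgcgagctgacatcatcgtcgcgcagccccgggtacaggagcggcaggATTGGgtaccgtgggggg

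The main list, called conservative by its makers, held 20080 regions after overlapping peaks were merged, and these were regions reproducible between the libraries at an irreproducible discovery rate (IDR) below 0.05. Read depth was not given in the sources used here, so depth is described only through the 14012 regions of replicate 1's own list and the 15564 of replicate 2's own list, each made from pseudoreplicates of that library. Signal is the authors' enrichment value per peak, with no unit given, and it is used here only to describe or rank regions within a list. The labelled cell type was set beside lists of marker genes. These lists were chosen with earlier results of these data known, so they are not an independent check of it. Of the erythroid markers, 9 of 10 had a promoter region, led by Epb42, and Alas2 had distal regions only. Of the other markers, 0 of 7 myeloid, 0 of 5 B and T cell, 2 of 5 megakaryocyte (Itga2b and Pf4) and 1 of 5 endothelial and fibroblast markers (Col1a1) had one. The share over all protein-coding genes was 41.9%. Neither replicate's own list held a promoter region for Col1a1. Distal regions only were found for 4 myeloid, 3 B and T cell, 1 megakaryocyte and 1 endothelial and fibroblast marker. Of all genes, 50.6% had a distal region within 50 kb.

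Of the 10 KLF genes, 8 had a promoter region of their own in the main list, against 41.9% of all protein-coding genes. Klf2 and Klf4 had none. Replicate 1's own list held a promoter region for 7 members (38.5% of all genes) and replicate 2's for 8 members (39.6% of all genes), which is 7.5 ± 0.707 members (SD, n = 2). Klf1 was the member that the replicates' lists did not share. In the looser list of replicated peaks, made with no IDR threshold, 9 members had one, against 46.5% of all genes. The 10 members were chosen with earlier results of these data known. Of 7 further KLF genes, 0 had a promoter region in any of these lists, so the shares of the 10 do not stand for all KLF genes.

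The 8 genes held 13 promoter regions of their own, 3 at Klf3, 2 each at Klf10, Klf11 and Klf13, and 1 each at Klf1, Klf6, Klf9 and Klf16. Of these 13, 11 were in both replicates' own lists, 1 was in replicate 2's alone (the weaker internal region of Klf3) and 1 was in neither (Klf1). All promoter regions of the main list were in both replicates' own lists in 80.7% of cases and in neither in 8.66%. All 13 were in both looser per-library lists.

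**Figure D1:**
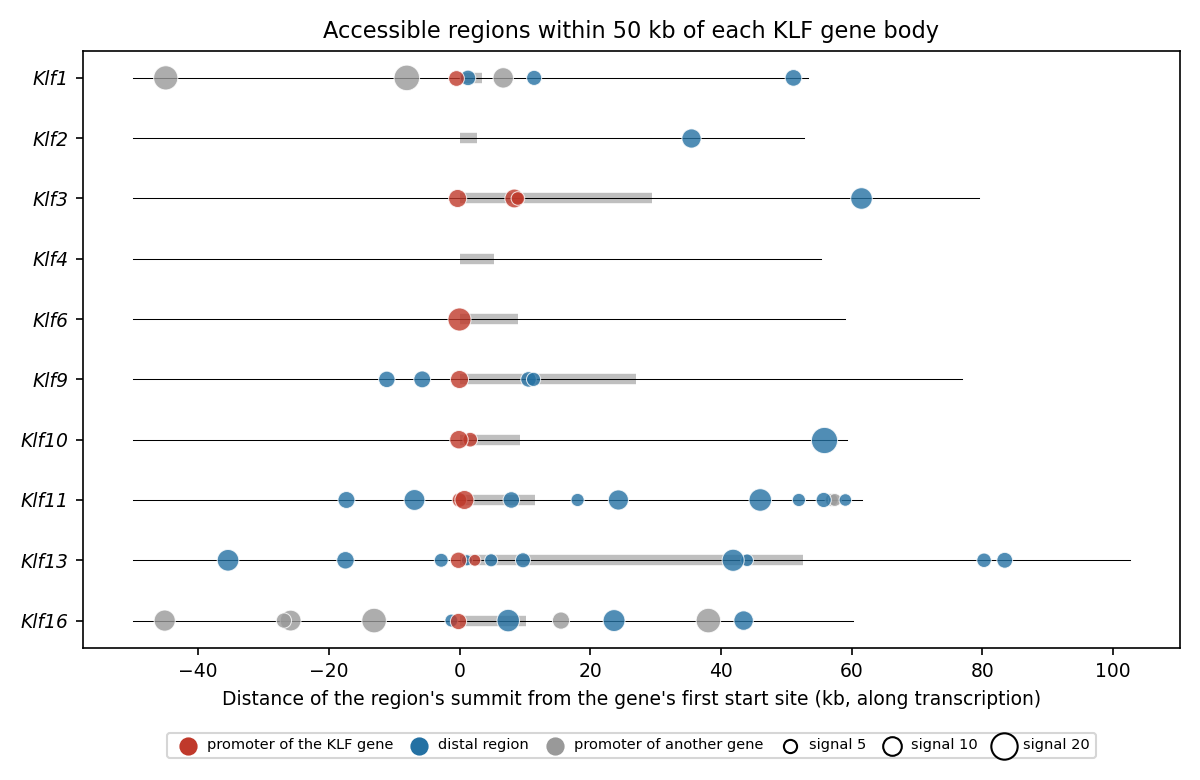
Accessible regions of the main list at the 10 KLF genes. The x axis gives the distance of the region's summit from the gene's first start site in kb along transcription, grey bars are gene bodies, thin lines the 50 kb windows, and the area of a point follows its signal. Klf11 and Klf13 carried 9 and 10 distal regions, and Klf4 carried no region.

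Klf6, an activator induced early by many growth signals, had the strongest promoter region of the family. It lay at chr13:5861064-5861659, 154 bp before the start, with a signal of 15.3, at percentile 66.7 among promoter regions. The region had a signal of 13.4 in replicate 1 and 15 in replicate 2, and it was the strongest KLF promoter in both lists. The 100 bp to each side of its summit held 4 CCAAT motifs and no GATA, KLF or GC box motif (GGGCGG).

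The other members' promoter regions were all below the median of their class. The 13 regions ranged over signals from 4.08 to 15.3 with a median of 7.68, against a median of 12.9 over all promoter regions of the list, and 1 of the 13, that of Klf6, was above it. By gene, the strongest promoter region of the 8 members had a median of 9.62, against 14 over all genes with one. The same count of 1 member above the median gene was found in replicate 1's list (median 9.42 for the members and 12.8 for all genes) and in replicate 2's (8.94 for the members and 13 for all genes). This is a description of 8 genes and was not tested.

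After Klf6 came Klf11 at 10.5, Klf3 at 10.2, Klf10 at 9.8 and Klf9 at 9.43, followed by Klf13 at 7.68, Klf16 at 7.61 and Klf1 at 7.13. The order among Klf3, Klf9, Klf10 and Klf11 changed between the libraries. Klf9 was the second in replicate 1 and the fifth in replicate 2, and Klf10 was the fifth in replicate 1 and the third in replicate 2. Klf13 and Klf16 also changed places with each other, at 7.61 and 6.99 in replicate 1 and at 7.24 and 8.05 in replicate 2. In both libraries those 4 genes lay below Klf6 and above Klf13, Klf16 and Klf1 where these had a region.

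**Figure D2:**
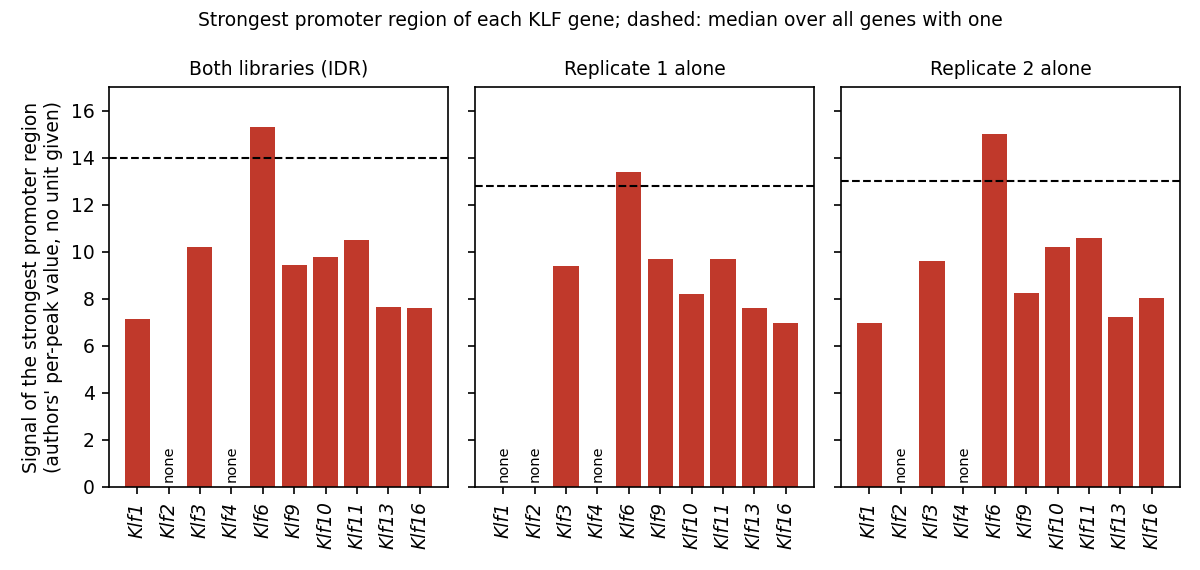
Signal of the strongest promoter region of each KLF gene in the main list and in each replicate's own list, with the median over all genes that have one as a dashed line. Klf6, with 15.3 in the main list, is the member above the line in each panel, and heights are to be read within a panel.

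Klf1, the erythroid activator, had the weakest promoter signal of the 8 genes and a promoter of another base composition than the rest. The ratio of observed to expected CpG within 500 bp of its start was 0.078, at percentile 5.31 of all genes, while the other 9 members ranged from 0.713 (Klf2) to 1.03 (Klf9). The median of the 10 members was 0.875, against 0.561 over all protein-coding genes, and their median GC content was 68.1%, against 54.9%. Its region in the main list was chr8:84901162-84901444, with the summit 629 bp before the start, a signal of 7.13 and percentile 12.1 among promoter regions. The 100 bp to each side of the summit held 2 GATA motifs, one of them within a CTG-GATA motif.

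The lists of the single libraries at the IDR threshold did not hold that upstream region, while both looser lists held it with signals of 6.07 in replicate 1 and 6.39 in replicate 2. A second region at the Klf1 start itself, chr8:84901719-84902199 with its summit 10 bp after the start, was in the looser replicated list with an IDR of 0.129 and so was not in the main list. It was in replicate 2's own list with a signal of 6.98, and in the looser list of replicate 1 with 4.73. The 150 bases before the start, printed above, held a GATA motif within a CTG-GATA motif on the minus strand. Klf1 therefore had a called promoter region in the main list and in replicate 2's list, but at different places. The list made from pooled pseudoreplicates at the IDR threshold held 2 promoter regions of Klf1, against 1 in the main list.

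Within Klf1, a distal region at chr8:84903042-84903374 lay in a coding exon with its summit 1.28 kb after the start. Its signal was 6.9 (percentile 16.8 among distal regions), and its window held a CTG-GATA motif and a KLF motif. It was in neither replicate's own list, with 6.14 and 6.25 in the looser lists of replicates 1 and 2. The strongest of the 3 distal regions near Klf1 lay 51.1 kb from the start in a coding exon of Rtbdn, at chr8:84952899-84953128 with a signal of 7.97 (percentile 31.2). It was in neither replicate's own list either and held none of the motifs. The third, in an exon of Mast1, had a signal of 6.55 and was in both, so that each replicate's own list held 1 distal region near Klf1. A further 3 regions within the window were promoters of Farsa, Gcdh and Dnase2a, with signals of 16.9, 18.8 and 11.9, each above that of Klf1.

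Klf3, the CtBP-dependent repressor, had 3 promoter regions at 2 places. The main promoter region, chr5:64802788-64803635, had its summit 305 bp before the first start, a signal of 9.41 and 2 KLF and 4 GC box motifs in a window of 77.1% GC, with no GATA motif. The other 2 lay in the gene's intron, next to internal start sites. The upstream one, chr5:64811539-64811961, was 8.37 kb after the first start and 586 bp before the nearest internal start, and at 10.2 it had the highest signal of the 3. Its window held 1 GATA and 2 KLF motifs.

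The second internal region, chr5:64812059-64812439, had its summit 36 bp before an internal start and a signal of 5.32, with 1 GATA and 1 KLF motif. The main and the upstream internal regions had 8.29 and 9.42 in replicate 1 and 9.27 and 9.61 in replicate 2. The internal region was thus the higher in both libraries. The single distal region of Klf3, chr5:64864682-64865016, lay 61.5 kb after the first start between genes, with a signal of 13.4 (percentile 84.8). Its signal was 8.85 in replicate 1 and 12.98 in replicate 2. It held 3 KLF motifs, each of the letters CCACACCC, and no GATA motif.

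Klf2 and Klf4, activators best known from endothelial cells and from stem cells, had no promoter region in the main list, in the list from pooled pseudoreplicates or in either replicate's own or looser list. The looser replicated list held a Klf2 promoter region 54 bp before the start with a signal of 4.14 and an IDR of 0.513. It held none for Klf4, nor did the archived replicated list, the largest one read. The promoters of both genes had CpG ratios in the upper part of all genes, 0.713 for Klf2 and 0.96 for Klf4.

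Klf2 had 1 distal region in the main list, chr8:72354141-72354588, 35.4 kb after its start in an intron of Eps15l1, with Klf2 the gene of the nearest start. Its signal was 10.6 (percentile 64.2), with 8.86 in replicate 1 and 10.4 in replicate 2, and its window held 1 GATA and 2 KLF motifs. Klf4 had no region within 50 kb, and the nearest region of the main list lay 162 kb from its gene body. In the looser replicated list Klf4 had 1 distal region, with a signal of 3.51 and an IDR of 0.513.

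Klf9, which glucocorticoids and thyroid hormone induce, had 1 promoter region, chr19:23140598-23141324, 90 bp before the start with a signal of 9.43, 9.72 in replicate 1 and 8.27 in replicate 2. It held 3 CCAAT motifs and 1 NF-E2/AP-1 motif (TGANTCA). Its 4 distal regions lay within 11.3 kb of the start, and Klf9 was the gene of the nearest start for all of them. The strongest, chr19:23135352-23136106, lay 5.73 kb before the start in a noncoding exon of 2410080I02Rik, with a signal of 8.16 and 5 KLF motifs. The intron region 11.3 kb after the start had the lowest signal, 5.77, and held 2 GATA motifs and a separate CTG-GATA motif. All 4 were in replicate 1's own list and 1 in replicate 2's, and the other 3 had signals from 5.79 to 5.99 in the looser list of replicate 2. With starts of all transcripts counted, protein-coding or not, Klf9 had 3 distal regions.

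Klf10 and Klf11, a closely related pair induced by TGF-beta, both had 2 promoter regions but differed in what lay around them. At Klf10 the stronger promoter region, chr15:38300617-38301239, was 106 bp before the first start with a signal of 9.8, and the other, at an internal start 1.62 kb further on, had 6.15. Both held KLF, GC box and CCAAT motifs. Its single distal region was the strongest region of the family, chr15:38244860-38245357, with a signal of 19.8 at percentile 98.2 among distal regions. It had 18.1 in replicate 1 and 14.6 in replicate 2, lay 55.7 kb after the first start, and was nearer to the start of Odf1. Its summit was in an intron of the noncoding gene Gm49313. With starts of all transcripts counted, protein-coding or not, Klf10 had 0 distal regions. The summit thus lay within 1 kb of a start that the promoter definition used here leaves out. Of the 6 motifs searched the region held CCAAT alone.

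Klf11 had its stronger promoter region, chr12:24651671-24652459, in the 5′ untranslated part of the gene 734 bp after the first start, with a signal of 10.5 and 1 GATA and 2 KLF motifs. The region at the first start had 6.13. Klf11 had 9 distal regions, and 0.224% of protein-coding genes had more. The replicates' own lists held 4 in replicate 1 and 5 in replicate 2. Their signals ranged from 4.51 to 14.6 with a median of 7.85. The strongest, chr12:24697123-24697448 at 46 kb, had 14.6 (percentile 89.6), with 9.49 in replicate 1 and 14.5 in replicate 2, and held none of the 6 motifs. It was nearer to the start of Rrm2. Klf11 was the gene of the nearest start for 3 of the 9, the strongest of them at chr12:24644003-24644551, 6.91 kb before the start, with a signal of 12.5 and 1 KLF motif.

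Klf13, a repressor and activator expressed in erythroid and lymphoid cells, had the most distal regions of the family, 10, and 0.101% of protein-coding genes had more. Each replicate's own list held 6 distal regions near Klf13, and of the 10 in the main list 5 were in replicate 1's and 6 in replicate 2's. Its gene body of 52.6 kb makes its window wider than that of the other members. With 50 kb taken to each side of the first start in place of the gene body, a count added after seeing the data, Klf13 had 8 and Klf11 6, and 99.8% and 98.8% of genes had fewer. The 10 regions had signals from 3.53 to 14.1 with a median of 6.24. The strongest, chr7:63896814-63897428, lay in an intron of Klf13 41.9 kb after the first start, with 14.1 (percentile 87.8), 13 in replicate 1 and 12.9 in replicate 2, and held 1 GATA and 1 GC box motif. Its nearest start was that of E030018B13Rik, at 19.8 kb.

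Klf13 was the gene of the nearest start for 6 of its 10 distal regions. 6 of the 10 held a GATA motif and 3 a KLF motif. 5 were in both replicates' own lists and 4 in neither. The promoter region at the first start, chr7:63938884-63939322, had a signal of 7.68 with 3 KLF motifs, and the one at an internal start had 4.08, the lowest of the 13.

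Klf16 had 1 promoter region, chr10:80577249-80578037, 185 bp before the start with a signal of 7.61 and 4 KLF motifs. Its window held 4 distal regions in the main list, against 2 in replicate 1's own list and 3 in replicate 2's. Of the 4, 3 were above the median of their class. The strongest, chr10:80569689-80570218, lay in an intron of Klf16 7.43 kb after the start with 14.6 (percentile 89.6), 13.5 in replicate 1 and 13.2 in replicate 2, and held 4 KLF, 2 GC box and no GATA motifs. The window around Klf16 also held 6 promoter regions of neighbouring genes, with signals from 6.7 to 17.4, and 2 of the 4 distal regions had their nearest start in Klf16.

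Of the 10 members, 8 had a distal region in the main list, against 50.6% of all protein-coding genes. Klf4 and Klf6 had none. The count was also 8 in replicate 1's own list (36.2% of all genes) and 8 in replicate 2's (40.8% of all genes), and 10 in the looser replicated list (74.2% of all genes), where Klf6 had 7. The median number of distal regions was 2 per member and the mean 3.3, against a median of 1 and a mean of 1.19 over all genes. The median of 2 hides an uneven spread, since Klf11 and Klf13 held 19 of the 33 regions. The 10 members were chosen with earlier results of these data known, and their counts do not stand for all KLF genes. Of 7 further KLF genes, 2 had a distal region in the main list.

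**Figure D3:**
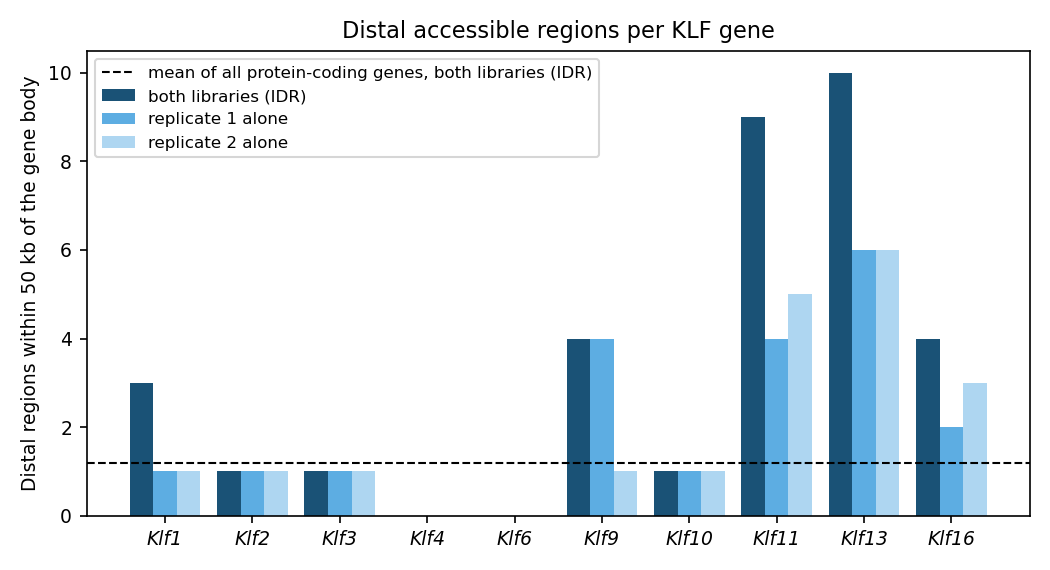
Distal regions within 50 kb of each KLF gene body in the main list and in each replicate's own list, with the mean over all protein-coding genes in the main list, 1.19, as a dashed line. The line is to be read against the bars of the main list alone. Klf13 has 10, 6 and 6 and Klf11 has 9, 4 and 5, while Klf4 and Klf6 have none in any of the 3.

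The total over the members was 20 distal regions in replicate 1's own list and 19 in replicate 2's. The mean per member was 2 in replicate 1's list, against 0.643 over all protein-coding genes, and 1.9 in replicate 2's, against 0.775. Of the 33 distal regions of the main list, 15 were in both replicates' own lists and 10 in neither, against 42.7% and 32.9% of all distal regions. A further 4 were in replicate 1's alone and 4 in replicate 2's alone. The 33 had signals from 3.53 to 19.8 with a median of 7.77, against 9.36 over all distal regions, and 11 of them were above that value. 15 lay in introns, 13 between genes and 3 in coding exons, and the nearest start belonged to the KLF gene for 18.

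**Figure D4:**
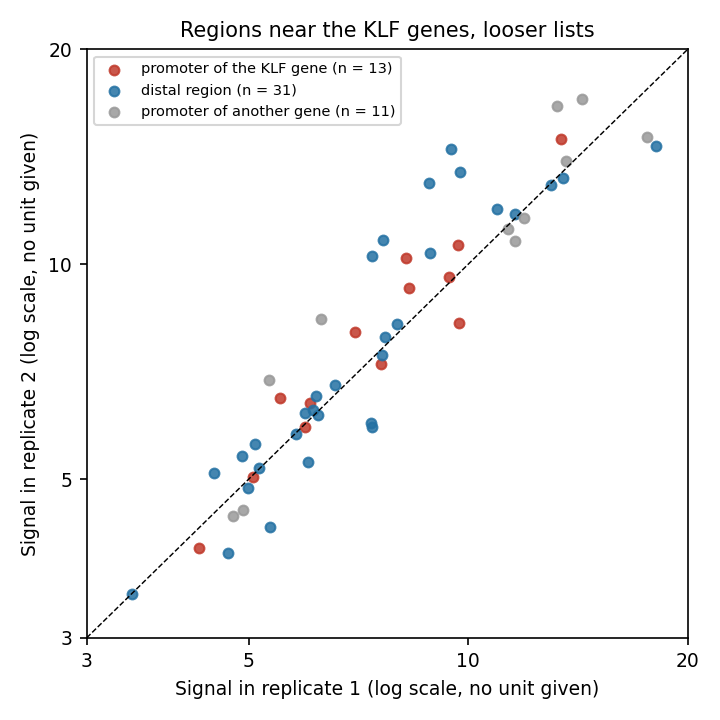
Signal in replicate 2 against replicate 1, both on log axes, for the 55 regions near the KLF genes that have a value in both looser per-library lists, coloured by class. The dashed line marks equal values, and the 13 promoter regions of the KLF genes lie along it.

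Over these 55 regions, the signals of the 2 libraries had a Spearman rho of 0.944 and a Pearson r of 0.932 on the log2 scale. This is a description over regions that share libraries and were selected for being reproducible, and it carries no p.

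The thresholds of the rule fell close to some regions. Just inside 1 kb of any start lay a region in the Klf16 window, 0.964 kb from a start of Adat3, with a signal of 6.7, and the farthest from a member's own start was that of Klf1 at 0.629 kb with 7.13. Just outside lay a Klf13 region at 1.10 kb from its own start with 3.53, the weakest near the family. Next came a Klf16 region at 1.26 kb with 4.79 and the Klf1 exon region at 1.28 kb with 6.9, both from their own starts. In the Klf11 window, regions 1.26 and 1.27 kb from a start of Rrm2, with 6.62 and 4.51, also lay just outside and count among its 9 distal regions. Just inside 50 kb of a gene body lay a Klf1 region at 47.6 kb with 7.97 and a Klf11 region at 47.4 kb with 4.51. Just outside lay a Klf11 region at 50.1 kb with 10.7 and a Klf2 region at 50.3 kb with 8.57.

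Motif content was counted in the 100 bp to each side of each summit, for the 33 distal and 24 promoter regions near the KLF genes, where the 24 are the 13 above and 11 promoters of neighbouring genes. GATA motifs were in 13 of the 33 distal regions (39.4%), against 50.9% of all distal regions, and CTG-GATA motifs in 2 (6.06%), against 9.11%. The 13 belonged to 5 genes, 6 to Klf13, 3 to Klf11, 2 to Klf9 and 1 each to Klf2 and Klf16. KLF motifs were in 12 (36.4%), against 33.9%, and at 7 of the 8 genes with a distal region.

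GC boxes were in 10 of the 33 distal regions (30.3%), against 14.2% of all distal regions. Of these 10, 9 were in windows above the median GC content of all distal regions, and the median GC content was 56.2% over the 33 and 51.7% over all distal regions. The part of base composition in the GC box share was not tested. NF-E2/AP-1 motifs were in 1 (3.03%), against 11.1%, and CCAAT in 11 (33.3%), against 23.5%. A core of the CTCF motif, searched after the values were seen, was in 2 of the 33, against 8.37% of all distal regions. A single region is 3.03% of the 33.

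In the 24 promoter regions, GATA motifs were in 5 (20.8%), against 13% of all promoter regions, and CTG-GATA in 1 (4.17%), against 2.12%. KLF motifs were in 17 (70.8%), against 62.2%, and GC boxes in 13 (54.2%), against 61.7%. NF-E2/AP-1 motifs were in 2 (8.33%), against 2.93%, and CCAAT in 12 (50%), against 37.1%. Among the 13 promoter regions of the KLF genes themselves, 4 held a GATA motif, 2 at Klf3 and 1 each at Klf1 and Klf11, and 10 held a KLF motif, at Klf3, Klf10, Klf11, Klf13 and Klf16. The promoters of Klf1, Klf6 and Klf9 held no KLF motif.

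**Figure D5:**
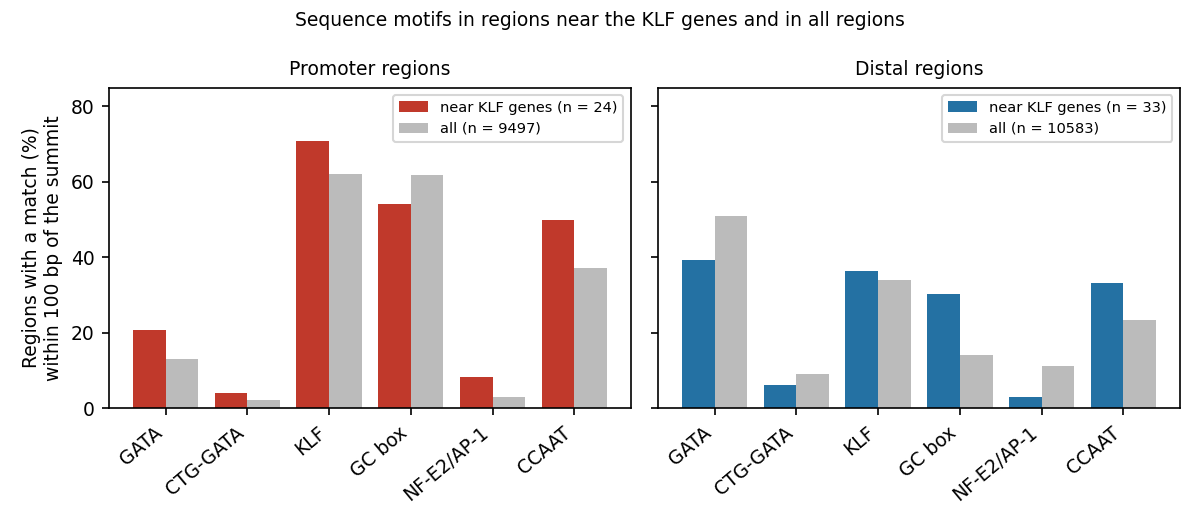
Share of regions with a motif match within 100 bp of the summit, in percent, for promoter regions (left) and distal regions (right), near the KLF genes in colour and over the whole main list in grey. In the distal panel the GATA share is 39.4% near the KLF genes and 50.9% over all regions, and the GC box share 30.3% and 14.2%.

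The other genes of the family and its pathway were counted from lists chosen with earlier results of these data known. Of 7 further KLF genes, 0 had a promoter region in the main list, in either replicate's own list or in the looser replicated list. In the main list Klf15 and Klf17 had distal regions within 50 kb, and Klf5, Klf7, Klf8, Klf12 and Klf14 had none. Of 9 SP genes, the relatives that bind GC boxes, 4 had a promoter region (Sp2 at 15.5, Sp1 at 10.9, Sp3 at 10.5 and Sp4 at 8.07). Sp6, Sp7 and Sp9 had distal regions only, and Sp5 and Sp8 had neither kind in the main list.

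Of 12 genes for partners through which KLF proteins repress or activate, 11 had a promoter region. The strongest were Sin3b at 20.3 and Hdac1 at 17.8, which belong to the Sin3 corepressor, and Wwp1, a ubiquitin ligase known to act on KLF proteins, at 16.6. Fhl3 had distal regions only. Of 20 known KLF1 target genes found in the annotation, 17 had a promoter region, led by Epb42 at 16.4, Tfr2 at 11.5 and Cd44 at 11.2. E2f2 and Alas2 had distal regions only, and Klf8 had neither kind. Klf3, a member of that list too, is counted in it with its 3 promoter regions. Hbb-bs, Hbb-bt, Slc4a1, Alas2 and Epb42 are also among the erythroid markers above, so the counts of those lists overlap. The shares of these lists are to be read against the 41.9% of all protein-coding genes.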

How the data were processed

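The measurements are ATAC-seq peak lists of 2 libraries of estradiol-treated G1E-ER4 cells, deposited as narrowPeak files on mm10, as the labels say. How reads were aligned, filtered, shifted for the transposase cut and called into peaks is not stated in these sources, nor is the number of reads, so no interval from read counts can be given. According to the deposited file list, the authors called peaks on single libraries, on pseudoreplicates and on pooled data, and compared the replicates by IDR. The deposited signal of each peak is the authors' enrichment value, whose scaling is not given, and its −log10 p and −log10 q are deposited beside it and were not tested. The score of the deposited ranked list is −log10 of the global IDR, and every peak of the main list was found there with an IDR below 0.05.

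Overlapping peaks of a list were merged into 1 region on 21 chromosomes, with the summit of the strongest peak. Genes and 54327 start sites of protein-coding transcripts came from GENCODE M21. A region was said to be in another list where the overlap covered 50% of the shorter one. Base composition was read in 500 bp to each side of the first start and motifs in 100 bp to each side of summits, from the GRCm38 genome of RefSeq. Python 3.11.15, numpy 2.4.6, pandas 2.3.3, pysam 0.24.0 and matplotlib 3.10.9 were used, and the counting was checked on planted regions and motifs. With 1 group no test was made. Counts are set beside all protein-coding genes or all regions, and errors are the SD of the replicates' own lists. The plan named −log10 p per replicate for the agreement of the libraries, and the signal of each library's own looser list was used in its place. The members, lists and motifs were chosen with earlier results of these data known. All members are named, each with its strongest promoter and distal region, and from each list the 3 genes of strongest promoter signal and those with no promoter region. One known KLF1 target and erythroid marker had no match in the annotation and is not analysed here. A marker gene and a region's sequence that this rule or the choice of sequences would name are not reported here. Alternatives were other lists, each library alone, other windows, other start sites, other promoter definitions and only regions above the median signal.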

Additional observations from a re-analysis of the deposited data

How the results depend on the processing

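The 8 members with a promoter region became 9 in the looser and in the archived replicated list, and 1 when only regions above the list's median signal were kept. It was 7 or 8 elsewhere. The 8 members with a distal region became 5 in that restriction and 5 within 20 kb, and lay between 7 and 10 elsewhere. The number of regions within 50 kb, 57 in the main list, was 109 in the looser replicated list, 209 in the archived one, 18 above the median signal and 88 within 100 kb. The median number of distal regions per member, 2, was 5 in the looser replicated list, 13 in the archived one and 0.5 above the median signal. It was 3 with the promoter limit at 500 bp, 1.5 with starts of all transcripts, 1 within 20 kb, 3.5 within 100 kb, 1 for regions nearest to the member's own start, and 1.5 with 50 kb to each side of the start, the last chosen after seeing the data. Without replicate 1 or without replicate 2, which are the lists of a single library, the median ranged from 1 to 1.

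The GATA share of distal regions was 30.3% in 50 bp to each side of the summit and 48.5% over whole regions, against 39.4% in 100 bp to each side. It was 44.4% for regions nearest to the member's own start, a setting chosen after seeing the data. The KLF motif share was 24.2% in 50 bp to each side, 51.5% over whole regions and 50% for regions nearest to the member's own start (chosen after seeing the data), against 36.4%. With 1 replicate left out, the GATA share and the KLF motif share each ranged from 36.8% to 45%. The share over all distal regions is not given at these other settings. These values are therefore not to be set against the shares of all distal regions in 100 bp to each side. Klf13 had the highest distal count of the family in most alternatives, but above the median signal Klf11 and Klf16 had 3 each and Klf13 2, and it tied with Klf11 at 9 when any base within 1 kb or starts of all transcripts were counted. Of 120 distal counts recomputed for single members, 76 were within 1.5 times of the main count and 44 were not. The 76 include counts that stayed at 0 at Klf4 and Klf6. No paired analysis was possible because the 2 libraries form 1 group. Depth per library is unknown, so regions missing from a list may be below its detection.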
